A study of Rattus norvegicus with 20 samples.

Results

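The genes described here mark the wall of brain vessels: the endothelial cells that form the blood-brain barrier and the pericytes that wrap them. The list holds 39 symbols. Each was looked up by its symbol in the count table. Of these, 38 had 1 row among 32883 genes, and Pecam1 was not analysed here. All 38 passed the filter on low counts, which kept 15272 genes.

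The libraries were made from polyA RNA of hippocampus of Gunn rat pups killed on postnatal day 6. Gunn rats lack a working Ugt1a1 enzyme when homozygous, so their liver cannot make bilirubin soluble for excretion. Both genotypes come from this strain, so the Nj pups carry 1 mutant copy. Some labels write Jj for Nj. Ugt1a1 was not analysed here, and the genotype rests on the labels. There were 4 groups of 5 pups: homozygous jaundiced pups given phototherapy (jj PT), heterozygous non-jaundiced pups given phototherapy (Nj PT), untreated jaundiced pups (jj no PT) and untreated non-jaundiced pups (Nj no PT). Phototherapy was intermittent LED light that began on postnatal day 4 and came to 12 h in all, in cycles of 3 h on and 3 h off. Each pup gave RNA from 1 hippocampal lobe, and litter and sex are not given in the labels. The comparisons address what light did within each genotype, what jaundice did within each treatment, and whether the effect of light depended on genotype.

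As background, endothelial cells of brain vessels are sealed to each other by tight and adherens junctions, so nutrients enter the brain through carriers and many drugs and toxins are pumped back into the blood. Wnt ligands from neural cells act through beta-catenin and TCF/LEF factors in the endothelium to switch these barrier properties on, and pericytes recruited by the platelet-derived growth factor receptor Pdgfrb help to keep them. Rat hippocampal vessels are still sprouting and maturing in the first postnatal week. Several members are not limited to vessels: Ocln and Bsg are also made by choroid plexus epithelium, and Slc7a5, Tfrc and Bsg by many brain cells.

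Library totals ran from 16.9 to 27.1 M counts (M for mega), and the lowest count of any member in any library was 59, for Sox7. Hippocampal genes were abundant in every library, with Neurod6 at 218 to 362 CPM (counts per M after scaling) and Prox1 at 89.4 to 135 CPM. Plvap, a marker of leaky vessels and of choroid plexus vessels, ran from 1.01 to 10.9 CPM. The Y-linked gene Kdm5d had 0 counts in 11 libraries and reached 42.3 CPM in others, and sex was not in the models. Neighbouring tissue differed between libraries: Ttr, the choroid plexus gene for transthyretin, ran from 3.57 to 9662 CPM and passed 1000 CPM in 3 jj PT, 2 Nj PT, 1 jj no PT and 1 Nj no PT library. Library titles carry the prefix J18 in both treated groups and other prefixes in the untreated groups, so light and prefix cannot be told apart. Among untreated pups the jj libraries carry J17 and the Nj libraries J13, J14 or J15, so genotype and prefix cannot be told apart there. The averaged jaundice comparison and the interaction draw on these untreated groups. In bulk tissue, fewer vessel cells and less RNA per vessel cell cannot be told apart either. Levels of different genes are not compared with each other, because no transcript lengths are given.

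The start regions of 4 members on which the results below turn are shown from RefSeq GRCr8, each with 250 bases before and 50 after the annotated start (300 in all). They are Slc7a5, Apcdd1, Rgs5 and Kdr. Slc7a5 and Apcdd1 were called for light, in the mean of both genotypes, under every setting run. In that comparison, without covariates, Rgs5 was the only member called higher and Kdr the called member with the largest fold change. Slc7a5 lies at chr19:66872363-66872662, minus strand, Rgs5 at chr13:84380827-84381126, plus strand, Apcdd1 at chr18:58655446-58655745, plus strand and Kdr at chr14:32571813-32572112, plus strand. Capitals mark exact matches on either strand to CTTTGA (core of TCF/LEF sites), CCGGAA (ETS factors such as Erg) or ACAATG (SoxF factors), which do not overlap each other here. Each sequence reads 5′ to 3′ on the strand of its gene.
Slc7a5: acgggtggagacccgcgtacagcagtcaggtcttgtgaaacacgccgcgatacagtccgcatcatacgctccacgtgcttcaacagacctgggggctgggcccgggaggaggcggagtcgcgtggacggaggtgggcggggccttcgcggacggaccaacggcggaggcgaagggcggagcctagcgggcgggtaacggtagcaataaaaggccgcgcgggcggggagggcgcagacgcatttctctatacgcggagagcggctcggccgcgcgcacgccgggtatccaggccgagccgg
Rgs5: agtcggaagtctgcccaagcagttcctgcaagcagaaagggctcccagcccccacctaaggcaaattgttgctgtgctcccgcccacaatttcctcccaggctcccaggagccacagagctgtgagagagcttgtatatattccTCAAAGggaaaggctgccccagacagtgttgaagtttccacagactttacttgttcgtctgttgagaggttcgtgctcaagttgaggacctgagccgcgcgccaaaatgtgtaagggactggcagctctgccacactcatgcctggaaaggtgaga
Apcdd1: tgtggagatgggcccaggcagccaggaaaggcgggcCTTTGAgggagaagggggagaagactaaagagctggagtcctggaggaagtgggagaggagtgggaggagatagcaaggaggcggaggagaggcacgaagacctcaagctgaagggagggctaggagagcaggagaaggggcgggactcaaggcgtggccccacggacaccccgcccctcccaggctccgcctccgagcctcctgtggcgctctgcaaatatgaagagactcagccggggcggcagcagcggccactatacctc
Kdr: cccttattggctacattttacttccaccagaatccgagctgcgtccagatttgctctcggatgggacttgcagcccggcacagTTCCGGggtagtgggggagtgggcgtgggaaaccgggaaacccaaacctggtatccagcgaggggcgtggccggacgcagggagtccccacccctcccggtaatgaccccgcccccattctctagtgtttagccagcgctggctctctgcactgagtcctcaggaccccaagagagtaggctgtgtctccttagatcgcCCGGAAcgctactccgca
The Apcdd1 window held 1 CTTTGA, which begins at -214 from the start. The Rgs5 window held 1 on the reverse strand, at -106. The Kdr window held CCGGAA once on each strand, and none of the 3 motifs was in the Slc7a5 window. Windows were at hand for 27 of the 39 symbols. CTTTGA was found for 3 of those 27 genes (11.1%: Apcdd1, Bsg and Rgs5) and in 16.1% of all 33469 rat windows. CCGGAA was found for 2 (7.41%: Abcc4 and Kdr), against 15% of all windows, and ACAATG for 2 (7.41%: Erg and Slco1a4), against 13.2%. These are matches of letters, and nothing was measured of binding.

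Averaged over both genotypes, 6 members were lower and 1 was higher in PT than in no PT pups. Slc7a5, a carrier of large amino acids, fell, as did Apcdd1 and Lef1 of the Wnt pathway, the receptor genes Notch3 and Kdr, and the adhesion gene Esam. Rgs5, a pericyte regulator of G-protein signalling, rose. The changes were small, from -0.29 to 0.19 on the log2 scale. These 7 of 38 members (18.4%) compare with 1541 of all 15272 genes tested (10.1%, of which 4.35% higher and 5.74% lower) at an adjusted p under 0.05 by edgeR's quasi-likelihood F-test with Benjamini-Hochberg adjustment. At an unadjusted p under 0.05 by the same test lay 10 of the 38 members (26.3%), near the 24.6% of all genes. The median log2 fold change was -0.02 over the 38 members and 0.00 over all genes. It was negative for 22 of the 38 members and for 7582 of all 15272 genes.

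Within genotypes the counts were lower. Light in Nj pups changed 2 of 38 members (5.26%), Slc7a5 and Rgs5, against 4.00% of all genes (1.49% higher and 2.51% lower). There 7 members (18.4%) lay at an unadjusted p under 0.05, against 18.1% of all genes. Light in jj pups changed 0 of 38, against 0.164% of all genes, while 7 members (18.4%) lay at an unadjusted p under 0.05, against 13.0% of all genes. DESeq2 called 2 members in jj pups, Apcdd1 (adjusted p = 0.000816) and Kdr (0.0276). It called 271 of all 32883 genes there, where edgeR called 25 of 15272. The difference between genotypes in the effect of light passed the threshold for no member, so a call in 1 genotype is not shown to differ from the other. The averaged comparison uses the same libraries as the comparisons within genotypes, so its calls are not separate evidence.

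Slc7a5 encodes LAT1, the light chain of a carrier that moves leucine, thyroid hormone and L-DOPA across the barrier and also works in neurons. Slc7a5 stood at 181, 163, 166, 175 and 183 CPM in jj PT pups, against 180.0, 184, 208, 189 and 192 CPM in jj no PT pups. Its Nj PT levels were 162, 158, 173, 159.6 and 157 CPM, against 188, 196, 174, 193 and 199.9 CPM in Nj no PT pups. All 5 Nj PT libraries lay below all 5 Nj no PT libraries, by a narrow gap between 173 and 174 CPM, while the jj groups overlapped. The means were 173 ± 8.73, 162 ± 6.44, 191 ± 10.9 and 190.3 ± 9.93 CPM in the jj PT, Nj PT, jj no PT and Nj no PT groups (SD, n = 5 each). Slc7a5 fell in Nj pups by edgeR (log2 fold change -0.23, SE 0.05, adjusted p = 0.00925) and in the mean of both genotypes (log2 fold change -0.19, SE 0.03, adjusted p = 0.00132). In jj pups the edgeR estimate had the same sign and did not pass (log2 fold change -0.14, SE 0.05, adjusted p = 0.201).

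Rgs5 is among the most specific pericyte markers of brain. The jj PT libraries had 52.9, 56.1, 54.0, 52.8 and 51.7 CPM of Rgs5, against 52.1, 48.7, 44.6, 50.7 and 50.9 CPM in jj no PT libraries. With 54.2, 61.9, 60.5, 62.2 and 64.3 CPM in Nj PT libraries, Rgs5 compared with 51.1, 53.6, 54.5, 44.8 and 48.5 CPM in Nj no PT libraries. In Nj pups 4 of 5 treated libraries stood above every untreated one, and Nj PT 1 lay within the untreated range. In jj pups the ranges overlapped slightly, with jj no PT 1 above jj PT 5. Rgs5 averaged 53.5 ± 1.65 CPM in jj PT, 60.6 ± 3.83 CPM in Nj PT, 49.4 ± 2.96 CPM in jj no PT and 50.5 ± 3.96 CPM in Nj no PT pups (SD, n = 5 each). By edgeR it rose in Nj pups (log2 fold change 0.26, SE 0.06, adjusted p = 0.0121) and in the mean of both genotypes (log2 fold change 0.19, SE 0.04, adjusted p = 0.00452), and did not pass in jj pups (log2 fold change 0.11, SE 0.06, adjusted p = 0.399). In Nj pups the call was lost without Nj no PT 4, the lowest untreated Nj library (adjusted p = 0.0530), and when the 7 Ttr-rich libraries (past 1000 CPM) were left out (0.0567). Its log2 fold change without those 7 was 0.25.

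Apcdd1 encodes a membrane-bound Wnt inhibitor that brain endothelium of mice makes in response to Wnt. Levels of Apcdd1 were 149.9, 147, 141, 143 and 146 CPM in jj PT pups and 155, 162, 163, 166 and 170.3 CPM in jj no PT pups. Among Nj pups Apcdd1 had 149, 158, 153, 150.2 and 149 CPM with light, against 162, 158, 150.1, 158 and 160.3 CPM without. Every jj PT library lay below every jj no PT library, whereas the Nj ranges overlapped. Averages were 145 ± 3.41 CPM in jj PT, 152 ± 3.93 CPM in Nj PT, 163 ± 5.47 CPM in jj no PT and 158 ± 4.66 CPM in Nj no PT pups (SD, n = 5 each). It fell in the mean of both genotypes by edgeR (log2 fold change -0.11, SE 0.02, adjusted p = 0.00657). In jj pups it narrowly missed the threshold (log2 fold change -0.17, SE 0.04, adjusted p = 0.0503 by edgeR), and 4 of 20 settings called it there, among them leaving out jj no PT 1 (adjusted p = 0.0460). In Nj pups the edgeR estimate was smaller (log2 fold change -0.06, SE 0.03, adjusted p = 0.428), and the test of the difference between genotypes gave -0.11 with adjusted p = 1.00.

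Lef1 encodes a TCF/LEF factor through which beta-catenin acts. Lef1 stood at 12.3, 9.83, 9.19, 10.2 and 12.2 CPM in jj PT pups, against 12.4, 12.8, 13.2, 13.5 and 11.9 CPM in jj no PT pups. Its Nj PT levels were 11.6, 11.5, 11.1, 11.6 and 11.3 CPM, against 13.6, 13.6, 12.5, 13.4 and 13.2 CPM in Nj no PT pups. The Nj groups did not overlap, and the 5 Nj PT libraries were close together. In jj pups 3 treated libraries, replicates 2 to 4, lay below all untreated ones and the other two lay among them. Lef1 fell in the mean of both genotypes by edgeR (log2 fold change -0.23, SE 0.05, adjusted p = 0.00854). Neither genotype alone passed: log2 fold change -0.25, SE 0.08, adjusted p = 0.149 in jj pups, and log2 fold change -0.21, SE 0.08, adjusted p = 0.120 in Nj pups.

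Notch3 encodes the receptor through which mural cells receive Notch signals from endothelium. The jj PT libraries had 99.6, 90.6, 72.3, 101 and 97.5 CPM of Notch3, against 108, 102, 126, 105 and 98.3 CPM in jj no PT libraries. With 87.8, 80.9, 88.1, 90.8 and 86.8 CPM in Nj PT libraries, Notch3 compared with 95.8, 101, 90.2, 111 and 111 CPM in Nj no PT libraries. In jj pups the lowest library was jj PT 3 and the highest jj no PT 3, with overlap at jj PT 1, jj PT 4 and jj no PT 5. In Nj pups only Nj PT 4 reached into the untreated range. It fell in the mean of both genotypes by edgeR (log2 fold change -0.23, SE 0.06, adjusted p = 0.0140), with log2 fold changes of -0.23 in jj pups and -0.23 in Nj pups that did not pass.

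Kdr encodes the main signalling receptor for VEGF on endothelium. Levels of Kdr were 53.4, 53.2, 49.7, 61.2 and 59.7 CPM in jj PT pups and 82.0, 76.8, 73.4, 74.3 and 56.5 CPM in jj no PT pups. Among Nj pups Kdr had 50.2, 56.0, 49.5, 69.3 and 63.2 CPM with light, against 72.9, 53.5, 73.3, 67.8 and 62.5 CPM without. In jj pups 4 of 5 untreated libraries stood above every treated one, and jj no PT 5 lay among the treated. In Nj pups the ranges overlapped widely. Kdr fell in the mean of both genotypes by edgeR (log2 fold change -0.29, SE 0.08, adjusted p = 0.0198), and did not pass in jj pups (log2 fold change -0.39, SE 0.11, adjusted p = 0.124) or Nj pups (log2 fold change -0.20, SE 0.11, adjusted p = 0.363).

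Esam encodes an adhesion molecule of endothelial tight junctions. Esam stood at 22.7, 18.8, 18.3, 21.5 and 20.1 CPM in jj PT pups, against 23.3, 22.4, 24.6, 21.8 and 20.4 CPM in jj no PT pups. Its Nj PT levels were 18.2, 18.9, 18.5, 22.3 and 22.7 CPM, against 23.1, 24.1, 21.3, 25.4 and 25.6 CPM in Nj no PT pups. The groups overlapped in both genotypes. Esam passed in the mean of both genotypes by edgeR (log2 fold change -0.20, SE 0.06, adjusted p = 0.0264), the weakest of the 7 calls: it was lost when any 1 of 8 libraries was left out (Nj no PT 4 and 5, Nj PT 1, 2 and 3, jj PT 2, 3 and 5, adjusted p 0.0501 to 0.0684).

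**Figure D1:**
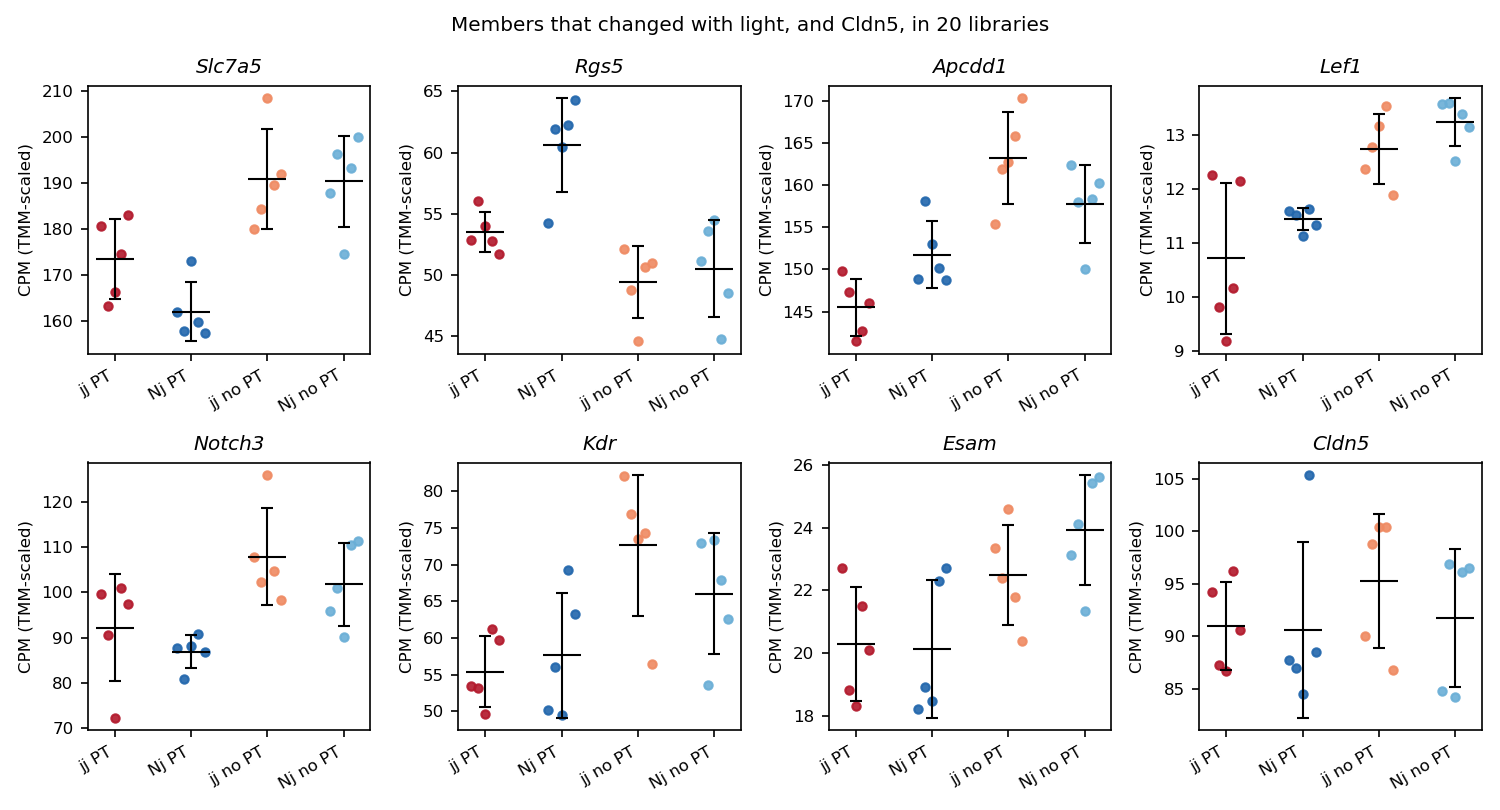
CPM of the 7 members called for light, and of Cldn5, in each library (dots), with the mean and SD of 5 pups (lines) for jj PT, Nj PT, jj no PT and Nj no PT; the vertical axes do not start at 0. On average, treated dots sit lower than untreated ones for Slc7a5, Apcdd1, Lef1, Notch3, Kdr and Esam, with overlap in at least 1 genotype, and higher for Rgs5. For Cldn5, which was not called, the groups overlap.

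In the mean of both genotypes, fewer members were called with neighbouring tissue levels as covariates, and fewer when Ttr-rich libraries were left out. The choroid plexus list was higher with light for 15 of 15 genes, with a median log2 fold change of 0.71 in the mean of both genotypes, 0 genes called by edgeR and 0 at an unadjusted p under 0.05. Its summed level ran from 117 to 8882 CPM in jj PT, 67.8 to 4643 CPM in Nj PT, 55.5 to 11021 CPM in jj no PT and 56.2 to 4844 CPM in Nj no PT libraries. The meninges list was lower for 13 of 16 genes (median -0.35), and 1 of them fell, Fbln1 (-0.51, adjusted p = 0.0376 by edgeR). In this list 8 of 16 genes (50%) lay at an unadjusted p under 0.05, against 24.6% of all genes. The list had summed levels of 542 to 1185, 539 to 1080.3, 502 to 1360 and 517 to 1041 CPM in the same groups. With the mean levels of both lists as covariates, 4 of 38 members were called, against 639 of all 15272 genes. They were Slc7a5 (adjusted p = 0.0132), Kdr (0.0168), Apcdd1 (0.0282) and Abcg2 (0.0326). Abcg2 averaged 11.0 CPM in PT and 9.65 CPM in no PT libraries (n = 10 each). In the covariate fit the log2 fold change of Kdr was -0.18 in place of -0.29. Of the calls that were lost, Rgs5 had 0.17 in place of 0.19 (adjusted p = 0.0565) and Lef1 -0.20 in place of -0.23 (0.0858). Notch3 had -0.19 in place of -0.23 (0.101), and Esam -0.14 in place of -0.20 (0.204). Leaving out the 7 libraries above 1000 CPM of Ttr, 3 of them jj PT, kept 13 libraries. There 2 members were called by edgeR, Slc7a5 (0.0194) and Apcdd1 (0.0455). The log2 fold changes of the members whose call was lost stayed between -0.34 (Kdr, in place of -0.29) and 0.16 (Rgs5, in place of 0.19). The part of the smaller number of libraries in these lost calls was not tested. All-gene calls in the mean of both genotypes dropped too, by the same edgeR test. They were 639 of 15272 with the covariates and 424 of 15495 without those libraries. Within genotypes, the covariate fit called 709 genes in Nj pups, against 611 without covariates, and 0 in jj pups, against 25. The members it called in Nj pups were Slc7a5 (adjusted p = 0.0100), Rgs5 (0.0166) and Eng (0.0400).

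**Figure D2:**
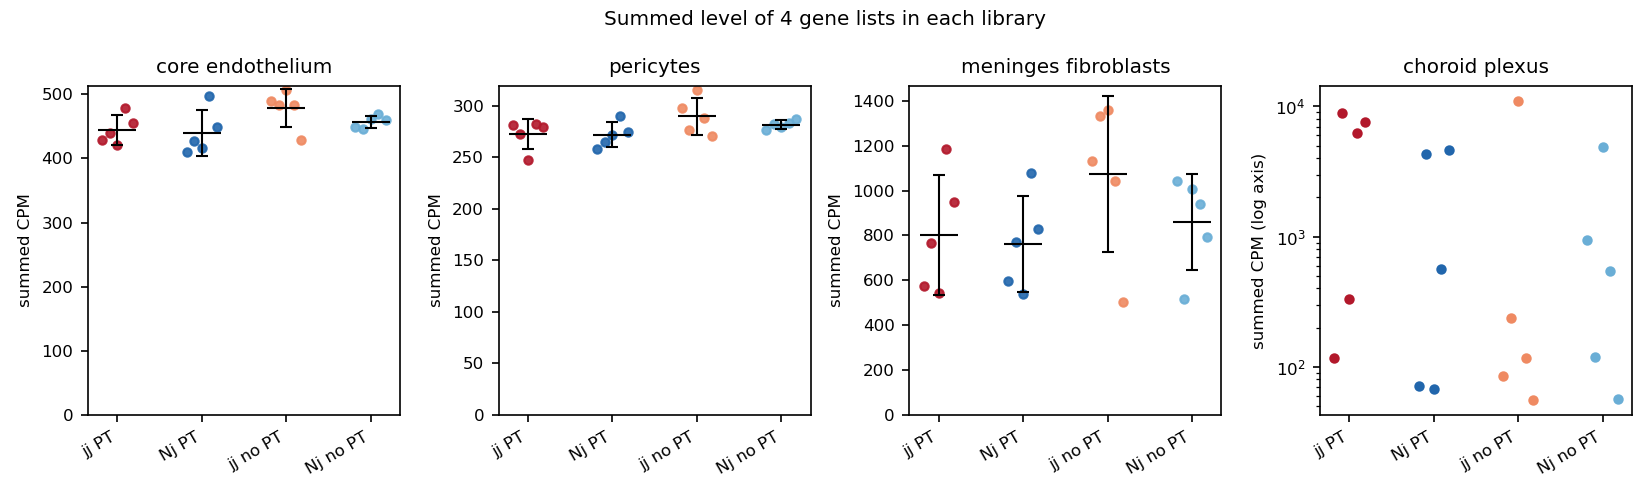
Summed CPM of the core endothelium, pericyte, meninges and choroid plexus lists in each library (dots) by group, with mean and SD lines except for choroid plexus, whose axis is logarithmic. Core endothelium and pericyte sums overlap between all 4 groups, and choroid plexus sums span 55.5 to 11021 CPM with high libraries in every group.

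Most vessel markers were not called for light, and their summed levels overlapped between groups. No test was run on the sums. Of the 13 core endothelial genes, 3 (23.1%) lay at an unadjusted p under 0.05 by edgeR for light in jj pups, against 13.0% of all genes. In Nj pups 2 (15.4%) did, against 18.1% of all genes. The 13 core endothelial genes summed to 444 ± 23.2 CPM in jj PT, 439.8 ± 35.5 CPM in Nj PT, 478 ± 29.6 CPM in jj no PT and 457 ± 9.87 CPM in Nj no PT libraries. The 7 pericyte genes summed to 273 ± 14.3, 272 ± 12.0, 289.8 ± 17.9 and 282 ± 4.07 CPM in the same groups (SD, n = 5 each). As the plot of summed levels shows, the ranges overlapped throughout.

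Cldn5 encodes claudin-5, the main tight junction protein of brain endothelium. The jj PT libraries had 94.2, 87.2, 86.7, 96.3 and 90.6 CPM of Cldn5, against 90.0, 98.8, 100.4, 100.4 and 86.8 CPM in jj no PT libraries. With 87.8, 87.0, 84.5, 105 and 88.5 CPM in Nj PT libraries, Cldn5 compared with 84.8, 96.9, 84.2, 96.2 and 96.5 CPM in Nj no PT libraries. The groups overlapped, and Nj PT 4 was the highest of all 20 libraries. By edgeR the log2 fold change with light was -0.07 in jj pups (SE 0.06, adjusted p = 0.689) and -0.02 in Nj pups (SE 0.06, adjusted p = 0.920).

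Cdh5 encodes VE-cadherin of the adherens junction. Levels of Cdh5 were 29.2, 29.9, 29.4, 36.5 and 36.1 CPM in jj PT pups and 40.0, 38.8, 38.7, 37.8 and 32.5 CPM in jj no PT pups. Among Nj pups Cdh5 had 30.1, 34.2, 29.4, 46.5 and 34.0 CPM with light, against 35.1, 30.6, 39.6, 34.8 and 33.4 CPM without. Again Nj PT 4 was the highest library, and the groups overlapped. The edgeR log2 fold change with light was -0.22 in jj pups (SE 0.11, adjusted p = 0.384) and 0.01 in Nj pups (SE 0.11, adjusted p = 0.988).

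Vwf encodes von Willebrand factor, a clotting protein stored in endothelium. Vwf stood at 46.6, 44.4, 49.4, 62.9 and 50.8 CPM in jj PT pups, against 58.5, 57.3, 59.2, 61.4 and 52.4 CPM in jj no PT pups. Its Nj PT levels were 48.1, 48.9, 55.2, 57.2 and 47.7 CPM, against 48.7, 58.0, 52.4, 58.7 and 59.5 CPM in Nj no PT pups. The groups overlapped, and jj PT 4 was the highest of all 20 libraries while jj PT 2 was the lowest. For light, edgeR gave log2 fold changes of -0.19 in jj pups (SE 0.08, adjusted p = 0.328) and -0.11 in Nj pups (SE 0.08, adjusted p = 0.516). Vwf was called in 1 of 29 fits for the mean of both genotypes.

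The other core endothelial members were not called over all 20 libraries without covariates. Flt1, a VEGF receptor that acts largely as a decoy, ran from 25.7 to 35.6 CPM over the 20 libraries. The angiopoietin receptor gene Tek ran from 21.5 to 27.7 CPM. Egfl7, a secreted endothelial factor, ran from 14.5 to 21.8 CPM, and Ptprb, a phosphatase that restrains Tek, from 22.3 to 28.5 CPM. In Ocln, which encodes the tight junction protein occludin, the highest library had 2.26 times the lowest (9.86 to 22.3 CPM), and in Emcn, a surface sialomucin, 2.44 times (3.75 to 9.15 CPM). These 2 had the widest spread of the core endothelial genes.

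Among the carriers, Slc2a1 encodes GLUT1, which brings glucose across the barrier. The jj PT libraries had 54.8, 54.1, 54.9, 63.8 and 58.7 CPM of Slc2a1, against 54.5, 51.8, 54.6, 54.9 and 53.8 CPM in jj no PT libraries. With 49.9, 52.1, 53.5, 55.6 and 53.4 CPM in Nj PT libraries, Slc2a1 compared with 54.9, 57.4, 50.3, 56.9 and 53.8 CPM in Nj no PT libraries. Its level was among the steadiest of the members, with overlap between all groups, and its coefficient of variation over 20 libraries was 5.54%. Slco1c1, a thyroid hormone carrier, varied as little (124 to 148 CPM), whereas Slco1a4, an organic anion carrier, ran from 4.70 to 10.4 CPM. The efflux pump genes Abcg2 and Abcc4 ran from 7.65 to 13.1 CPM and from 13.2 to 18.7 CPM. Slc16a1, which encodes the lactate carrier MCT1, ran from 103 to 134 CPM. Bsg, whose product basigin accompanies MCT1 to the membrane, ran from 478 to 742 CPM. Over all 20 libraries without covariates, only Slc7a5 of the 10 carrier genes was called for light, in Nj pups and in the mean of both genotypes. Abcg2 was called in 1 of 29 fits for the mean of both genotypes, and Mfsd2a in 1 of 21 for Nj pups.

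Of the 6 endothelial transcription factors only Lef1 was called for light. Sox7, a SoxF factor, ran from 2.72 to 5.12 CPM, Erg, an ETS factor that keeps endothelial identity, from 5.76 to 8.80 CPM, and Foxq1, a forkhead factor of brain endothelium, from 4.53 to 7.75 CPM. Itm2a, a membrane protein gene that is high in barrier endothelium, ran from 78.9 to 118 CPM.

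Among the pericyte genes, Pdgfrb encodes the receptor that recruits pericytes. Levels of Pdgfrb were 54.9, 56.5, 48.0, 56.9 and 56.0 CPM in jj PT pups and 59.0, 54.0, 69.7, 50.8 and 46.8 CPM in jj no PT pups. Among Nj pups Pdgfrb had 45.6, 44.9, 49.0, 56.0 and 51.1 CPM with light, against 54.5, 53.7, 56.3, 53.4 and 53.8 CPM without. The groups overlapped, with jj no PT 3 the highest library and jj PT 3 the lowest of its group.

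Kcnj8 encodes the pore of the pericyte KATP channel. Kcnj8 stood at 5.99, 7.50, 6.58, 5.96 and 7.88 CPM in jj PT pups, against 7.70, 5.60, 8.87, 8.17 and 7.47 CPM in jj no PT pups. Its Nj PT levels were 6.50, 9.20, 6.37, 6.20 and 6.31 CPM, against 6.01, 6.27, 5.89, 6.46 and 6.83 CPM in Nj no PT pups. Nj PT 2 stood above the other Nj libraries, and jj no PT 3 was the highest of the jj libraries. Abcc9, the regulatory subunit of the same channel, ran from 34.4 to 48.0 CPM over the 20 libraries. Anpep, a surface peptidase, ran from 5.05 to 10.7 CPM, and Vtn, which encodes vitronectin, from 13.4 to 24.7 CPM. Anpep had the largest negative light estimate of the pericyte genes, without a call over all 20 libraries (log2 fold change -0.34, SE 0.12, adjusted p = 0.0845 by edgeR, mean of both genotypes). It was called in 2 of 29 fits for that comparison. Of the 7 pericyte genes Rgs5 rose and Notch3 fell in the mean of both genotypes.

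No member was called for jaundice. In untreated pups, jj against Nj, 0 of 38 members passed, against 0% of all genes, with 4 members (10.5%) at an unadjusted p under 0.05 by edgeR, against 6.36% of all genes, and 0 called by DESeq2. In treated pups the counts were 0 of 38 members, against 0% of all genes, with 6 members (15.8%) at an unadjusted p under 0.05, against 6.62% of all genes, and 0 by DESeq2. Averaged over treatments they were again 0 of 38, against 0% of all genes, with 4 (10.5%) at an unadjusted p under 0.05, against 11.2% of all genes, and 0 by DESeq2. The median log2 fold change of the members was 0.05 in untreated and -0.02 in treated pups. The treated comparison is the only one in which both groups share a title prefix.

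In untreated pups the members with the lowest p were Sox17, Tfrc and Tie1. Sox17, a SoxF factor of arterial endothelium, had 5.31, 5.13, 5.60, 4.69 and 4.42 CPM in jj no PT, against 3.17, 4.35, 3.58, 4.57 and 3.82 CPM in Nj no PT pups. Tfrc, the transferrin receptor that takes iron into the brain, had 127, 122, 86.9, 142 and 149 CPM in jj no PT, against 163, 152, 165, 142 and 139 CPM in Nj no PT pups. Tie1, an orphan receptor that works with Tek, had 46.0, 46.2, 54.7, 47.9 and 43.1 CPM in jj no PT, against 42.6, 42.7, 42.1, 43.8 and 44.4 CPM in Nj no PT pups. The ranges of all 3 overlapped, and jj no PT 3 held the highest Sox17 and Tie1 and the lowest Tfrc of its group. By edgeR the log2 fold changes were 0.37, -0.28 and 0.14, each with adjusted p = 0.775.

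With light, the lowest p between genotypes belonged to Eng, Rgs5 and Sox18. Eng, the endoglin co-receptor for TGF-beta and BMP ligands, had 25.1, 30.6, 25.5, 28.6 and 30.4 CPM in jj PT, against 21.4, 23.4, 21.8, 24.0 and 25.9 CPM in Nj PT pups. Sox18, a SoxF factor, had 12.5, 12.2, 8.73, 14.96 and 10.4 CPM in jj PT, against 9.10, 6.43, 7.92, 9.65 and 10.2 CPM in Nj PT pups. For Eng 3 of 5 jj libraries lay above all Nj libraries, and for Sox18 4 of 5 did. Their estimates were log2 fold change 0.27, SE 0.08, adjusted p = 0.724 for Eng, log2 fold change 0.45, SE 0.17, adjusted p = 0.724 for Sox18 and log2 fold change -0.18, SE 0.06, adjusted p = 0.724 for Rgs5 by edgeR. In the untreated groups Eng had 25.1, 26.3, 33.2, 26.5 and 24.8 CPM in jj no PT, against 26.5, 27.6, 25.5, 29.1 and 25.5 CPM in Nj no PT pups. Sox18 had 8.74, 9.37, 13.2, 11.2 and 6.64 CPM in jj no PT, against 10.9, 11.7, 9.33, 9.24 and 8.12 CPM in Nj no PT pups. These untreated groups overlapped widely, and jj no PT 3 was the highest library for both. Averaged over treatments, the lowest p belonged to Rgs5 (-0.11, adjusted p = 0.408), Eng (0.14, 0.414) and Tfrc (-0.18, 0.426), by edgeR.

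No difference between genotypes in the effect of light passed the threshold: 0 of 38 passed the interaction test by edgeR, against 0% of all genes, with 4 members (10.5%) at an unadjusted p under 0.05, against 3.41% of all genes, and 0 called by DESeq2. The lowest p belonged to Mfsd2a (0.31), Apcdd1 (-0.11) and Sox17 (-0.43), differences in log2 fold change between jj and Nj pups with adjusted p = 1.00. Mfsd2a, a lipid carrier that keeps transcytosis low in barrier endothelium of mice, had 20.4, 19.02, 18.8, 21.3 and 21.8 CPM with light, against 19.2, 20.4, 19.9, 17.4 and 19.2 CPM without, in jj pups. In Nj pups it had 17.5, 18.1, 20.3, 16.6 and 16.3 CPM with light, against 19.3, 25.0, 17.6, 21.2 and 21.4 CPM without. Nj PT libraries were mostly the lower ones and Nj no PT 2 stood highest, with overlap. For Sox17 the treated libraries had 4.70, 3.78, 3.37, 5.60 and 3.80 CPM in jj PT and 4.21, 4.97, 3.72, 5.05 and 4.21 CPM in Nj PT pups. For Tfrc they had 146, 161, 146, 119 and 138 CPM in jj PT and 155, 168, 134, 140.2 and 156 CPM in Nj PT pups. Tie1 had 42.9, 42.5, 43.7, 48.4 and 44.5 CPM in jj PT and 42.1, 39.4, 44.3, 47.2 and 42.2 CPM in Nj PT pups. All 3 overlapped between the genotypes.

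**Figure D3:**
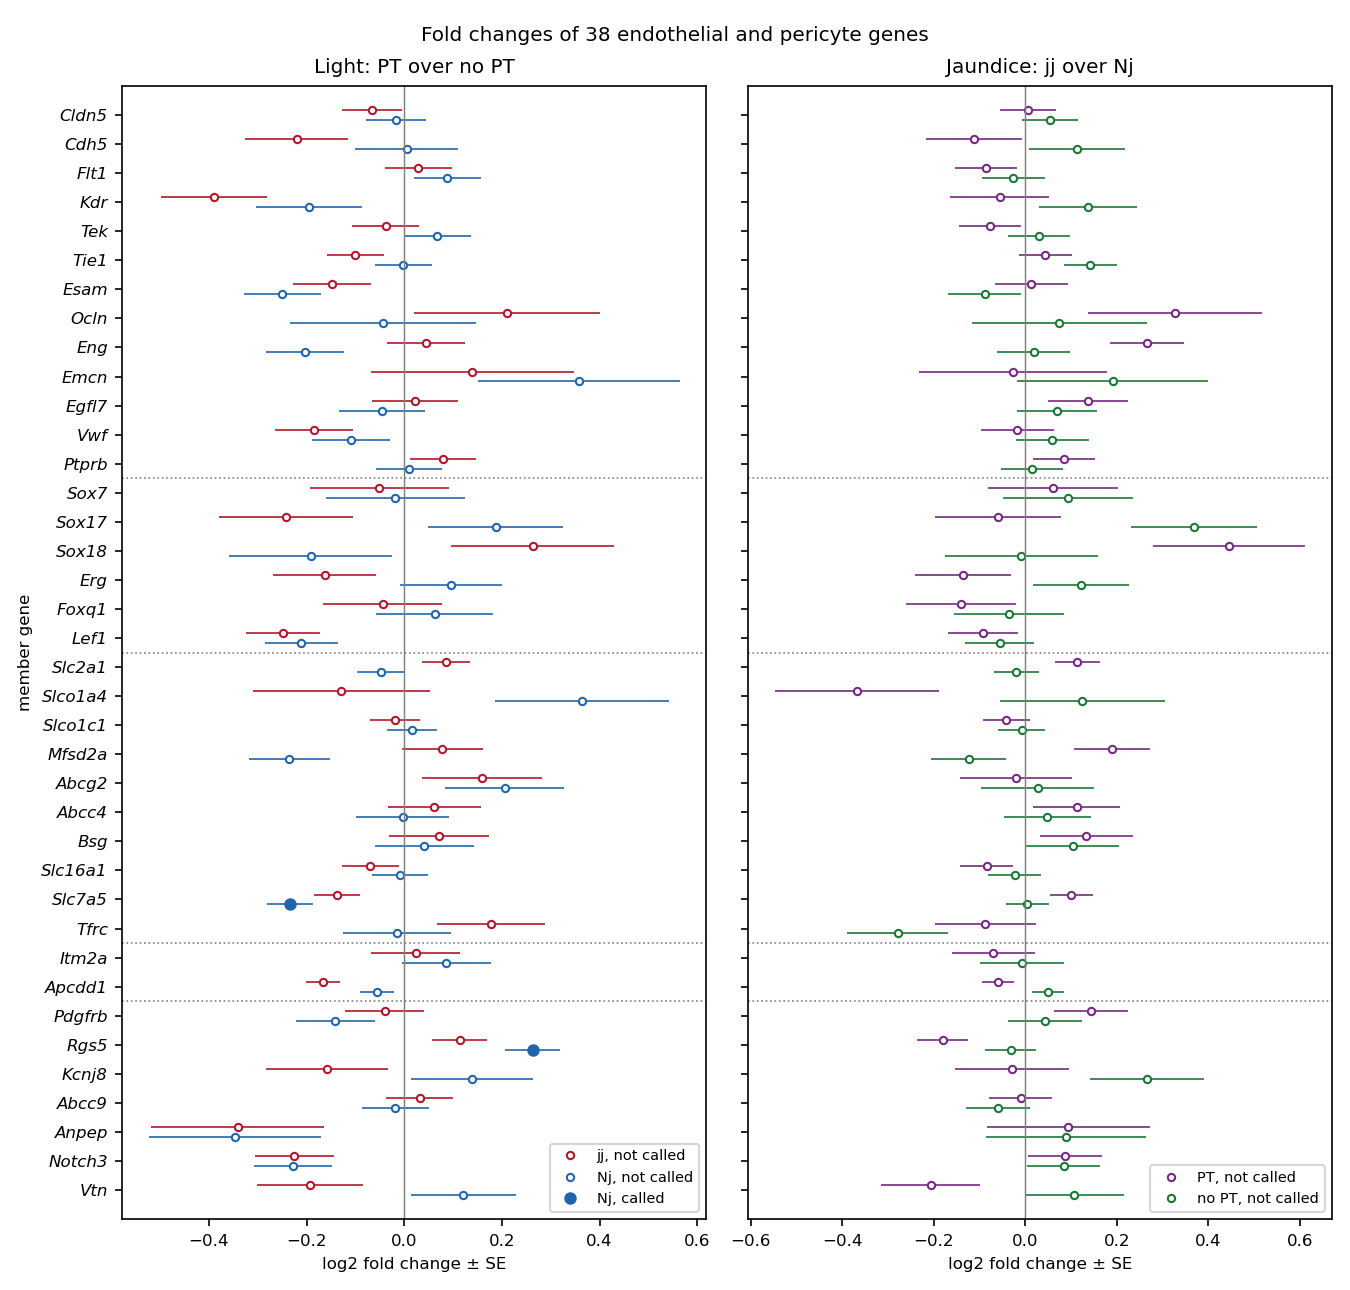
Log2 fold change with its standard error for each of the 38 members, by edgeR, for light (left: jj and Nj pups) and for jaundice (right: PT and no PT pups), with dotted lines between the role groups. Only Slc7a5 and Rgs5 in Nj pups are filled, the 2 members called for light within a genotype; none is filled for jaundice.

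Between libraries of the same group, some pairs of members moved together and others did not. After group means were removed, the median correlation of log2 CPM over 703 pairs of members was 0.14, against -0.0036 over all pairs of genes tested. It was 0.25 among core endothelial genes, 0.27 among the transcription factors, 0.08 among the carriers and 0.01 among pericyte genes. These are descriptions over 20 libraries, which share depth and tissue content. The highest pairs were Cdh5 with Kdr (r = 0.87), Eng with Bsg (0.84) and Kdr with Anpep (0.81), and the lowest was Tie1 with Tfrc (-0.88).

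Some members varied with the levels of neighbouring tissues. Median r with the meninges list was 0.32 over the 38 members, against -0.04 over all genes tested. With the choroid plexus list these medians were 0.13 and -0.08. Kdr (r = 0.95), Anpep (0.87), Cdh5 (0.84) and Itm2a (0.75) varied with the meninges list. Ocln (0.94), Bsg (0.89), Eng (0.78) and Emcn (0.72) varied with the choroid plexus list. The members called for light differed in this: beside the 0.95 of Kdr, r with the meninges list was -0.20 for Slc7a5, -0.13 for Rgs5, -0.35 for Apcdd1, 0.22 for Lef1, 0.32 for Notch3 and 0.46 for Esam. With the choroid plexus list, r was 0.52 for Kdr, -0.18 for Slc7a5, 0.06 for Rgs5, -0.17 for Apcdd1, -0.01 for Lef1, 0.15 for Notch3 and 0.12 for Esam. The part of vessels that belong to meninges or choroid plexus in these values was not tested.

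The mean level of the pericyte genes followed that of the core endothelial genes (r = 0.85, rho = 0.76, 20 libraries). Within the 10 libraries of prefix J18, r was 0.84. With choroid plexus and meninges levels removed, r was 0.76. The core endothelial mean also followed the meninges list (r = 0.77) and the choroid plexus list (0.75), over 20 libraries. For the pericyte mean these values were 0.76 and 0.44. Over 91 single pairs of a pericyte gene and a core endothelial gene, the median r was 0.14. Single pericyte genes differed in how they followed core endothelium. Their r with core endothelium was 0.82 for Pdgfrb, 0.63 for Anpep, 0.45 for Vtn and 0.40 for Notch3. It was 0.12 for Rgs5, 0.09 for Kcnj8 and -0.35 for Abcc9. The other members called for light differed too, each compared with core endothelium without itself. Values were 0.74 for Kdr, 0.47 for Esam, 0.10 for Lef1, -0.12 for Slc7a5 and -0.38 for Apcdd1. The cell of origin of these members was not tested.

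**Figure D4:**
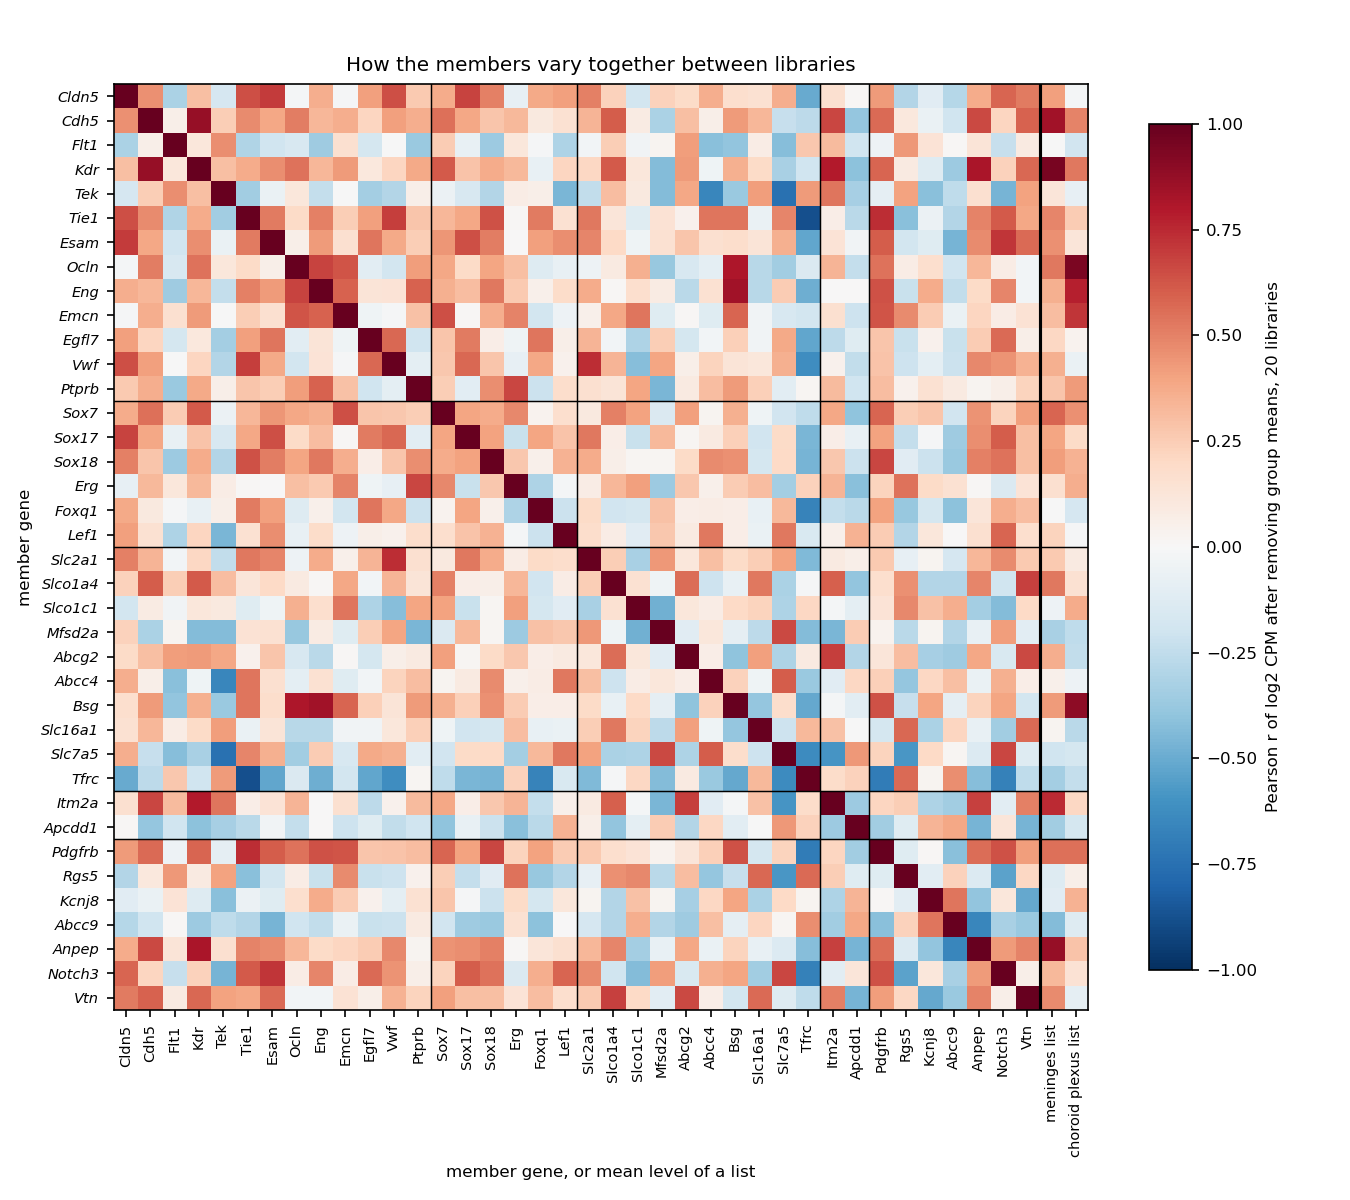
Pearson correlation of log2 CPM over 20 libraries after removing group means, for each pair of 38 members (rows and columns in role order, lines between roles) and, in the last columns, for each member with the mean meninges and choroid plexus levels. Dark red marks Kdr, Anpep and Cdh5 in the meninges column and Ocln and Bsg in the choroid plexus column; dark blue marks Tie1 with Tfrc (-0.88).

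Other vessel genes were counted from lists of the same pathways, for light in the mean of both genotypes by edgeR. Of 74 further endothelial genes 2 rose and 6 fell (10.8%, near the 10.1% of all genes), with a median log2 fold change of -0.03. Nid1, a basement membrane gene, averaged 183 ± 5.36 CPM in jj PT, 187 ± 13.1 CPM in Nj PT, 214 ± 7.63 CPM in jj no PT and 209 ± 14.5 CPM in Nj no PT pups (-0.20, adjusted p = 0.00131 on the log2 scale). Slc38a5, a glutamine carrier of barrier endothelium, averaged 16.2 ± 1.48 CPM in jj PT, 15.8 ± 1.18 CPM in Nj PT, 18.3 ± 1.53 CPM in jj no PT and 21.7 ± 2.45 CPM in Nj no PT pups (-0.32, adjusted p = 0.00199). Podxl, a sialomucin of the vessel lumen, also fell (-0.18, adjusted p = 0.00179), and Sparcl1, a matrix protein gene shared with astrocytes, rose (0.16, adjusted p = 0.00785). The other that rose was S1pr1, a sphingosine phosphate receptor gene that is outside the naming rule and was chosen after its values were seen (0.16, adjusted p = 0.0186). In Nj pups alone 3 of the 74 (4.05%, against 4.00% of all genes) were called, Slc38a5 and Podxl lower and Sparcl1 higher. In jj pups 0 of 74 were called by edgeR, with 16 (21.6%) at an unadjusted p under 0.05, against 13.0% of all genes.

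Of 41 vascular growth factor and receptor genes, 1 rose and 8 fell in the mean of both genotypes (22.0%, against 10.1% of all genes). Their median log2 fold change was -0.02. Nrp2, a VEGF and semaphorin co-receptor, averaged 249.5 ± 25.6 CPM in jj PT, 258 ± 16.5 CPM in Nj PT, 310.4 ± 25.2 CPM in jj no PT and 316 ± 17.1 CPM in Nj no PT pups (-0.31, adjusted p = 0.000422 by edgeR). It was also called in Nj pups (-0.30, adjusted p = 0.0153) and jj pups (-0.31, adjusted p = 0.0478). The Notch ligand gene Dll1 fell (-0.29, adjusted p = 0.00113), as did the chemokine receptor gene Cxcr4 (-0.33, adjusted p = 0.00179) and Angptl4, a secreted vascular factor (-0.41, adjusted p = 0.00236). The gene that rose was Pdgfb, the ligand of Pdgfrb, named after its values were seen (0.17, adjusted p = 0.0170). In Nj pups 6 of the 41 (14.6%, against 4.00% of all genes) were called, Pdgfb higher (0.23, 0.0453) and 5 lower, among them Notch1 (-0.24, adjusted p = 0.0277). Neurons and glia also express Nrp2, Dll1, Notch1 and Cxcr4, and the cell of origin was not tested.

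Of 21 further Wnt pathway genes, 2 fell and 0 rose in the mean of both genotypes (9.52%, against 10.1% of all genes). Their median log2 fold change was -0.07. The 2 that fell were Ctnnb1, the beta-catenin gene (-0.11, adjusted p = 0.0134 by edgeR), and Wnt7a, a ligand that drives barrier formation (-0.16, adjusted p = 0.0248). Wnt7a averaged 60.8 ± 2.29 CPM in jj PT, 58.8 ± 4.12 CPM in Nj PT, 67.0 ± 6.93 CPM in jj no PT and 66.5 ± 3.82 CPM in Nj no PT pups (SD, n = 5 each). Of 34 further mural genes (median 0.03) 2 rose (5.88%, against 10.1% of all genes). They were Rgs4 (0.38, adjusted p = 0.0234) and Art3 (0.38, adjusted p = 0.0409). Rgs4 averaged 183 ± 44.2 CPM in jj PT, 199 ± 27.9 CPM in Nj PT, 142 ± 17.7 CPM in jj no PT and 151 ± 15.9 CPM in Nj no PT pups. RefSeq GRCr8 lists Rgs4 as the next protein-coding gene after Rgs5 on chromosome 13, and neurons express it strongly. Of 16 genes of astrocyte endfeet around vessels (median -0.06), 3 rose and 1 fell (25%, against 10.1% of all genes). The water channel gene Aqp4 (0.26, adjusted p = 0.0108), the potassium channel gene Kcnj10 (0.23, adjusted p = 0.0139) and Dtna (0.13, adjusted p = 0.0190) rose. Agrn (-0.23, adjusted p = 0.00100) fell. Of 15 endothelial activation genes (median -0.06) only Fn1, the fibronectin gene, was called (-0.46, adjusted p = 0.0459). This is 6.67% of the list, against 10.1% of all genes.

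Genes of other hippocampal cells were counted the same way. Of 14 microglia genes 4 rose (28.6%, against 10.1% of all genes, median 0.17): P2ry12 (0.41), Ctss (0.30), Gpr34 (0.42) and Aif1 (0.24). Of 16 hippocampal neuron genes 3 rose and 4 fell (43.8%, against 10.1% of all genes, median -0.02). Among them Reln (-0.36), Fezf2 (-0.24) and Neurod2 (-0.23) were lower and Gad2 (0.27) was higher. None of 7 red blood cell, 8 perivascular macrophage and 8 ependyma genes was called by edgeR. Their median log2 fold changes were -0.14, -0.28 and -0.02, with 1, 2 and 0 genes at an unadjusted p under 0.05 (14.3%, 25% and 0%, against 24.6% of all genes). The part of these cells in the vessel results was not tested.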

How the data were processed

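PolyA libraries of 20 hippocampi, 5 in each group, were analysed from 1 table of raw read counts per gene that the authors deposited, with no normalization. Per the submitters' processing notes the tools were FastQC, TopHat2 2.0.13, Subread and edgeR; the notes name a mouse build while the identifiers are of rat, so the rat build behind the counts is not given in the sources used here. A gene counted against other annotation could take or lose reads. The table held no rows without a gene name. The series description speaks of 6 untreated pups, and 5 in each untreated group were analysed here.

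Gene tests used edgeR 4.0.16 with limma 3.58.1 in R 4.3.3: filterByExpr by group, TMM, 4 group means over all 20 libraries, robust quasi-likelihood F-tests, two-sided, Benjamini-Hochberg over 15272 genes, threshold 0.05. CPM used TMM-scaled totals. DESeq2 1.42.0, on all genes, was an alternative. Correlations used log2 CPM (prior count 2) after removing group means. Intervals are SD over pups, which include counting error. No 2 libraries held identical counts.

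Members, gene lists and tests were chosen with earlier results of these data known, including the Ttr limit. All members are accounted for by level; values in every library are given for members called in any comparison, the 3 lowest p in each comparison and fixed markers, and up to 4 called genes per other list are named.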

Additional observations from a re-analysis of the deposited data

Results flagged for a closer look

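Among 76 groups of 5 libraries (19 named members in 4 groups), 6 held a library far from the other four; chance flags about 1 in 20 groups. Nj PT 4 had the highest Cldn5 (105 CPM, others 84.5 to 88.5) and Cdh5 (46.5 CPM, others 29.4 to 34.2) of its group. In Nj PT 3, Slc7a5 was 173 CPM (others 157 to 162), which is the nearest of the treated Nj libraries to the untreated ones. Nj PT 2 held 9.20 CPM of Kcnj8 (others 6.20 to 6.50). Eng was 33.2 CPM in jj no PT 3 (others 24.8 to 26.5), the library with the highest Ttr. Pdgfrb was 48.0 CPM in jj PT 3 (others 54.9 to 56.9).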

How the results depend on the processing

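Jaundice and the interaction gave 0 member calls under every setting run. For light in Nj pups, 2 calls became 1 without the libraries above 1000 CPM of Ttr (Slc7a5; Rgs5 had log2 fold change 0.25, adjusted p = 0.0567), and 1 to 3 when each library was left out in turn. Beside Slc7a5 and Rgs5, edgeR called Eng there with covariates (adjusted p = 0.0400) and Notch3 with the compared groups alone (0.0279). Esam was added by DESeq2 (0.0376) and, by edgeR, without jj no PT 3 and Nj PT 4 together (0.0356). For light in jj pups, 0 calls became 1 (Apcdd1) with a mean count of at least 10 and without jj no PT 3 and Nj PT 4 together (chosen after seeing the data), 2 with DESeq2, and 0 to 1 when each library was left out. In the mean of both genotypes 7 calls became 4 with choroid plexus and meninges covariates, 2 without the Ttr-rich libraries, and 6 to 9 with 1 library out (9 without jj PT 4). Slc7a5 and Apcdd1 were called in 29 of 29 fits, Kdr in 28, Lef1, Notch3 and Rgs5 in 27, and Esam in 19. The pericyte and endothelium correlation (0.85) was 0.84 in prefix J18, 0.87 without Ttr-rich libraries, 0.85 with DESeq2 size factors and 0.76 with neighbouring tissue levels removed. No named fold change changed sign under any alternative run.

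Counts over all genes moved more. Light in Nj pups (611) gave 709 with covariates, 112 without Ttr-rich libraries, 1009 by DESeq2, 969 without jj no PT 3 and Nj PT 4, 152, 159, 272 and 253 without Nj no PT 4, Nj no PT 5, Nj PT 2 and Nj PT 5, and 152 to 651 over all single libraries. Light in jj pups (25) gave 0 with covariates, 0 without Ttr-rich libraries, 3 with the compared groups alone, 271 by DESeq2, 99 without jj no PT 3 and Nj PT 4, and 0 to 43 with 1 library out. The mean of both genotypes (1541) gave 639, 424 and 1957 under covariates, Ttr and DESeq2, and 1020 without Nj no PT 4. The cause of these moves was not tested. No paired analysis was possible because replicate numbers were given in accession order and link no pups across groups. A fit of the compared groups alone does not apply to averaged comparisons or the interaction.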
